A study of Mus musculus with 18 samples.

Results

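Which genes PDGF-BB still changed once Itgav mRNA had been depleted was asked by setting 3 libraries of smooth muscle cells given Itgav siRNA and PDGF-BB against 3 libraries given Itgav siRNA and no stimulus. These 6 libraries were chosen by their labels out of 18 in the series, and all 15832 genes that passed the filter on low counts were tested. The cells were cultured smooth muscle cells from the thoracic aorta of C57BL/6 mice. All 6 libraries share the siRNA against Itgav, and 6 further libraries, used here for comparison, received a scramble siRNA without an intended target and were likewise left unstimulated (3) or given PDGF-BB (3). The sources used here do not state the dose or duration of PDGF-BB, the sequence of the siRNA, whether cells of several mice were pooled, or whether replicates were separate cultures. P-values are therefore relative to the variation among these libraries, part or all of which may be technical.

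PDGF-BB is a dimeric growth factor released by platelets and other cells of the vessel wall. It binds PDGF receptors on smooth muscle, which signal through RAS and ERK among other routes, and it is known for driving migration and for lowering the genes of the contractile apparatus, a change often called phenotypic modulation. Integrin αV, the product of Itgav, pairs with several β chains to bind matrix proteins such as fibronectin, vitronectin and osteopontin, and some of these pairs release TGF-β from its latent complex.

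The 6 siRNA libraries held between 17705072 and 20868459 counts. Replicates differed by more than counting noise in each of the 4 groups used, since chi-square over its degrees of freedom was 3.75 to 6.71 among siRNA libraries. The scramble PDGF-BB replicate 1 lay farthest from its group (12.6 and 9.24 against the other 2 libraries), so counts of differences from scramble cells are also given without it where it changes them. Without it, 6 of 101 called differences of named genes were lost, those of Itgb1, Phlda1, Foxo4, Adamts1, Adamts2 and Atf4. In a principal component analysis of the 6 siRNA libraries 59.2% of the variance lay on the first component, which placed the unstimulated libraries between 33.5 and 37.6 and the PDGF-BB libraries between -36.7 and -32.7. In what follows, levels are TMM-scaled counts per 1000000 (CPM) given in the order of replicates 1, 2 and 3, a value after a log2 fold change is its standard error, and a gene was called when edgeR's quasi-likelihood test gave a Benjamini-Hochberg adjusted p under 0.05.

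Itgav itself (ENSMUSG00000027087, chromosome 2, 83724397 to 83806916 on the plus strand, GRCm38) stood at 14.8, 14.1 and 16.4 CPM in unstimulated siRNA cells and at 19.1, 23.9 and 25.5 CPM with PDGF-BB. The scramble libraries held 300, 326 and 323 CPM unstimulated and 307, 336 and 319 CPM with PDGF-BB. Every siRNA library thus lay far below every scramble library in either medium. Within the siRNA cells the residual message was 1.51-fold higher with PDGF-BB (log2 fold change 0.60 ± 0.1, edgeR adjusted p = 6.2e-05), whereas in scramble cells it moved by 0.02 ± 0.072, and the difference between these responses was 0.58 ± 0.12 (edgeR adjusted p = 0.0025).

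Across the transcriptome 5766 genes were called in siRNA cells, 36.4% of those tested. Of these, 2719 were higher (17.2% of tested genes) and 3047 lower (19.2%). The groups did not overlap for 5602 of the called genes, which is not separate support, since the test used the same values. At least 2-fold changes were called for 612 higher and 437 lower genes, and the median log2 fold change of all tested genes was -0.015. In scramble cells PDGF-BB gave 5714 calls (36.1%), 2676 higher (16.9%) and 3038 lower (19.2%), with 450 and 437 at least 2-fold. In bulk RNA, fewer cells of a type and less RNA per cell cannot be told apart. The siRNA and scramble responses were measured on separate libraries. Genes higher in both numbered 1338, which is 49.2% of the siRNA list and 50% of the scramble list, and 1656 were lower in both (54.3% and 54.5%). A further 245 genes were called in both with opposite signs, 160 of them higher in siRNA cells and lower in scramble cells. Across genes, which are not independent replicates, the log2 fold changes of the pair correlated with a Pearson r of 0.568 and a Spearman rho of 0.49. Responses differed between siRNA and scramble cells for 2981 genes (18.8%), 1505 more positive (9.51%) and 1476 more negative (9.32%) in siRNA cells, of which 174 and 86 by at least 2-fold. Without scramble PDGF-BB replicate 1 the number was 2218.

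**Figure D1:**
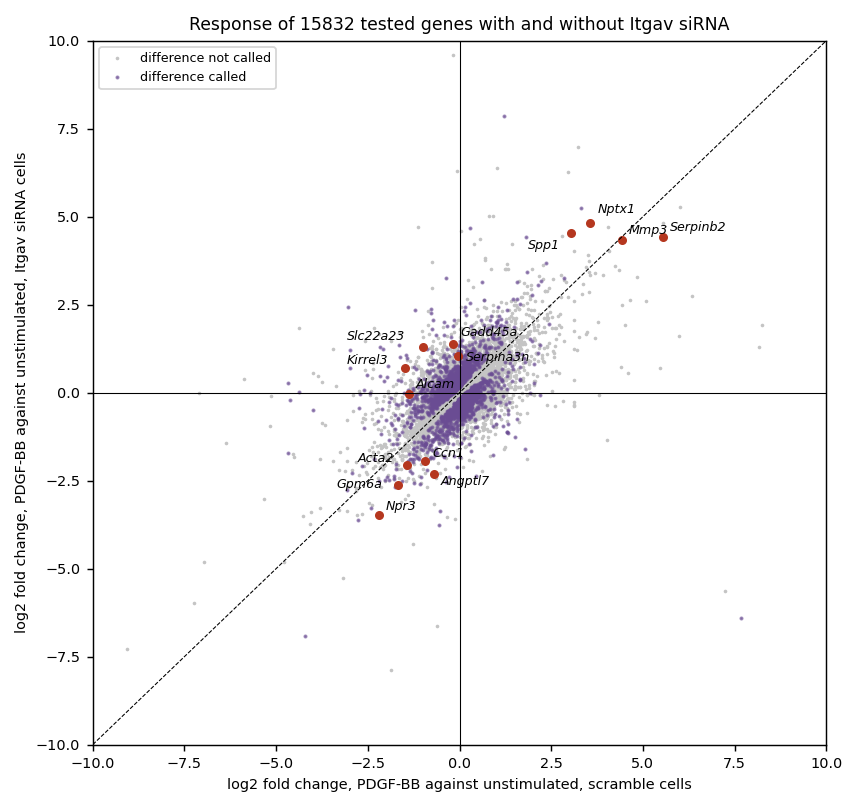
Each point is a tested gene, with the log2 fold change of PDGF-BB against unstimulated in scramble cells on the x axis and in Itgav siRNA cells on the y axis. The dashed line marks equal responses, purple points are genes whose responses differed (2981 of 15832), and red points are named genes, with Spp1 above the line and Npr3, Gpm6a and Acta2 below it.

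The largest rises began with Nptx1, a secreted neuronal pentraxin (chromosome 11, 119538719 to 119547753 on the minus strand). It stood at 3.65, 2.31 and 2.54 CPM unstimulated and at 68.4, 84.9 and 85.0 CPM with PDGF-BB, a log2 fold change of 4.81 ± 0.18 (edgeR adjusted p = 4.7e-15). Spp1, which encodes the αV integrin ligand osteopontin (chromosome 5, 104435118 to 104441050 on the plus strand), went from 101, 86.0 and 91.0 CPM to 2197, 2143 and 2138 CPM, or 23.3-fold (4.54 ± 0.078, edgeR adjusted p = 1.1e-20). No PDGF-BB library of either gene came near an unstimulated one. The matrix-degrading enzymes Mmp3 and Mmp13 and the serpin Serpinb2 also rose. Mmp3 went from 1.88, 2.91 and 2.33 CPM to 48.3, 50.0 and 47.1 CPM (4.34 ± 0.19), and Mmp13 from 6.76, 5.82 and 6.06 CPM to 59.3, 72.9 and 55.5 CPM (3.33 ± 0.14). Serpinb2 went from 1.72, 1 and 0.674 CPM to 23.2, 24.6 and 25.2 CPM (4.43 ± 0.21), and in all 3 genes the lowest PDGF-BB library was several times the highest unstimulated one. The remaining members of the top 10 were Npy4r, a neuropeptide Y family receptor (3.40), Ivl, the epidermal protein involucrin (3.35), Penk, the enkephalin precursor (3.31), and the prolactin family genes Prl2c2 (4.46) and Prl2c3 (3.68). The last pair are near-identical paralogs between which reads may be split, so their separate values are uncertain. The rule that chose these 10 required groups that do not overlap, and their largest edgeR adjusted p was 4.9e-12.

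The largest falls were led by Ccn5, a matricellular growth inhibitor of smooth muscle (chromosome 2, 163820861 to 163833146 on the plus strand). It dropped from 455, 434 and 492 CPM to 39.0, 37.4 and 35.0 CPM, 12.4-fold lower (-3.63 ± 0.063, edgeR adjusted p = 1.1e-20). Npr3, the clearance receptor of natriuretic peptides, dropped from 362, 368 and 369 CPM to 29.8, 34.5 and 34.4 CPM (-3.48 ± 0.063, edgeR adjusted p = 1.6e-20). Among the other 8 were the flavin monooxygenase Fmo2 (-3.35), the small leucine-rich proteoglycans Fmod (-2.78) and Ogn (-2.50), the membrane glycoprotein Gpm6a (-2.62), the glutamate transporter Slc1a6 (-2.56), the sulfotransferase Gal3st2 (-3.28) and the transcription factor Atoh8 (-2.50). Here too the rule required that the highest PDGF-BB library lie below the lowest unstimulated one.

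The 200 bases before the transcript starts of 3 strongly raised genes and of 1 lowered contractile gene are shown because each holds a short motif, either of AP-1, the FOS and JUN dimer known to act on matrix protease genes, or of serum response factor, known to act on contractile genes (RefSeq, GRCm38.p6, plus strand, 5′ to 3′). Capitals mark the AP-1 site (TGANTCA) in Mmp3 (chr9:7445622-7445821), Mmp13 (chr9:7272314-7272513) and Serpinb2 (chr1:107511223-107511422), and the CArG box, the element that serum response factor binds, in Myl9 (chr2:156775264-156775463). The sites lie 46, 35 and 94 bases before the starts of Mmp3, Mmp13 and Serpinb2 (1 of 2 listed starts) and 161 before that of Myl9.
Mmp3: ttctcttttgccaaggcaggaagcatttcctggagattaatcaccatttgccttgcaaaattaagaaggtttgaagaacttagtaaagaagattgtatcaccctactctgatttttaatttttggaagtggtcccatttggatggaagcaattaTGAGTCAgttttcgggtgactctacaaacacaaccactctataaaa
Mmp13: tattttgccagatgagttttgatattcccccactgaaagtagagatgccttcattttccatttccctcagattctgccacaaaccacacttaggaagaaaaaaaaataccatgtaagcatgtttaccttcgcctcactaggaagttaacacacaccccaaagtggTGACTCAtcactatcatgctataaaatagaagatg
Serpinb2: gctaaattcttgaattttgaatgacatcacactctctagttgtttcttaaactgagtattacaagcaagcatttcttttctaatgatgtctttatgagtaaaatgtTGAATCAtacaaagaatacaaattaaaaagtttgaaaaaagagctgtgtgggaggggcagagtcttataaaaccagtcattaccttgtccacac
Myl9: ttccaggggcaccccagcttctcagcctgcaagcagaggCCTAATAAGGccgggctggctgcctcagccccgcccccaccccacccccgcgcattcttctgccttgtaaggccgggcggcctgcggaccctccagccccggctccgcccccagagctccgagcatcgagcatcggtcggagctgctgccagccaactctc
Windows of 300 bases, from 250 before to 50 after a start, were found for 11202 of 15810 tested symbols and were searched on both strands, both motifs reading alike on each. An AP-1 site was present for 6.49% of all genes with a window, for 13.4% of the 411 raised at least 2-fold and for 4.3% of the 302 lowered at least 2-fold. A CArG box was present for 1.56% of all, for 0.973% of those raised and for 2.98% of those lowered at least 2-fold. In the list of contractile genes 4 of 19 windows held a CArG box, and in that of matrix proteases and inhibitors 5 of 13 held an AP-1 site. The 5 were Mmp3, Mmp10, Mmp13, Plaur and Serpinb2. An AP-1 site was also held by 6 of 17 chemokine, cytokine and NF-κB windows and by 6 of 24 interferon-stimulated ones. In both of these lists more genes fell than rose. These are matches of letters and not measured binding.

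Among the PDGF genes, none of 7 tested rose in edgeR's test (1 was higher at an unadjusted p under 0.05, and 1 in DESeq2). Of the 7, 3 fell (42.9%, against 19.2% of all tested genes). Pdgfrb, a receptor chain that binds PDGF-BB, stood at 511, 480 and 481 CPM unstimulated and at 326, 339 and 334 CPM with PDGF-BB (-0.56 ± 0.037, edgeR adjusted p = 4.4e-11). Pdgfra, the other receptor chain, fell by 0.52 on the log2 scale, and the ligand gene Pdgfd fell by 0.55, with no overlap between the groups in either. The ligand genes Pdgfa (0.05) and Pdgfb (-0.08) did not pass, nor did Pdgfc (0.20, edgeR adjusted p = 0.072) or the receptor-like gene Pdgfrl (-0.41, edgeR adjusted p = 0.051). Pdgfc passed in 3 alternative fits and Pdgfrl in 3 as well.

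Genes that ERK signalling is known to induce, many of which restrain it, rose in 13 of 15 cases (86.7%, against 17.2% of all tested genes). Of the rest 1 was lower and 1 did not pass, and the median log2 fold change of the 15 was 0.64. Spry4, a Sprouty inhibitor of RAS signalling, went from 10.6, 8.84 and 8.40 CPM to 26.1, 27.0 and 27.6 CPM (1.53 ± 0.095, edgeR adjusted p = 1.4e-11). The ERK phosphatase Dusp6 went from 26.2, 28.9 and 24.1 CPM to 58.8, 58.2 and 58.3 CPM (1.15 ± 0.067, edgeR adjusted p = 5.9e-12). The ETS factors Etv1 (1.36), Etv4 (1.31) and Etv5 (0.64) rose, as did Spred1 (0.78), Spred2 (0.60) and Spred3 (1.08), Ier3 (0.87), Dusp4 (0.42), Phlda1 (0.34), Spry2 (0.33) and Dusp7 (0.28). Spry1 went the other way, from 15.5, 10.8 and 13.8 CPM to 6.55, 5.75 and 7.08 CPM (-1.05 ± 0.11, edgeR adjusted p = 1.5e-07). Dusp5 did not pass in siRNA cells (0.20, edgeR adjusted p = 0.12) but rose in scramble cells (0.83), and the difference was called (edgeR adjusted p = 0.0029). Of the 15 responses 4 were more positive in siRNA than in scramble cells, those of Spry4, Etv1, Etv5 and Ier3, which is 26.7% against 9.51% of all tested genes. Those of Dusp5 and Phlda1 were more negative (13.3% against 9.32%), and the call at Phlda1 (-0.33, edgeR adjusted p = 0.046) was lost on leaving out any of 8 libraries. Without scramble PDGF-BB replicate 1 the counts were 4 and 1.

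Immediate early factors, which growth factors induce within minutes to hours, were higher in 8 of 15 cases and lower in 2. Their shares were 53.3% and 13.3%, against 17.2% and 19.2% of all tested genes. Egr3 rose from 0.966, 1.31 and 0.881 CPM to 6.01, 7.50 and 7.46 CPM (2.72 ± 0.25) and Fosl1, an AP-1 subunit, from 7.24, 5.17 and 7.15 CPM to 18.7, 16.7 and 16.0 CPM (1.39 ± 0.15). Egr1 (0.67), Jun (0.63), Junb (0.61), Nr4a1 (1.14) and Egr2 (1.26) rose as well, Maff fell (-0.80), and Fos (-0.10), Fosb (-0.07) and Myc (0.12) did not pass. A list of 13 HMGA genes, G1 cyclins, cyclin-dependent kinases and their inhibitors had 6 higher (46.2%) and 4 lower members (30.8%). The 6 include the inhibitors Cdkn1a (0.16) and Cdkn2b (0.46), and the 4 include the inhibitor Cdkn2c (-0.39). Hmga1, a chromatin architecture protein of growing cells, rose from 88.5, 88.2 and 86.6 CPM to 360, 331 and 326 CPM (1.95 ± 0.049, edgeR adjusted p = 3.9e-18), and its relative Hmga2 rose 2.13-fold. Ccnd1, the G1 cyclin D1, went from 1371, 1406 and 1332 CPM to 2201, 2370 and 2299 CPM (0.74), while Ccnd3 fell from 185, 189 and 193 CPM to 111, 108 and 103 CPM (-0.82). Compared with scramble cells, Hmga1 rose less (log2 difference -0.49, edgeR adjusted p = 3.2e-05) and Ccnd3 fell more (-0.55, edgeR adjusted p = 0.00037).

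No gene of the replication or mitosis lists was called higher, in edgeR, at an unadjusted p under 0.05 (0 in either list) or in DESeq2. Of 20 replication and G1/S genes 3 were lower (Rrm1, Rrm2 and Tyms, at -0.47, -0.36 and -0.37), or 15% against 19.2% of all tested genes, and the median log2 fold change was -0.04. Of 20 G2/M genes 10 were lower (50%), with a median of -0.24. Mki67, expressed by dividing cells, stood at 113, 134 and 108 CPM unstimulated and at 97.7, 86.7 and 97.7 CPM with PDGF-BB (-0.33 ± 0.068, edgeR adjusted p = 0.00056). Ccna2 (-0.59), Cdk1 (-0.48) and Cdc20 (-0.39) fell further, and Top2a (-0.15) and Ccnb1 (-0.12) did not pass. The count of 10 was 6 without unstimulated siRNA replicate 2. In edgeR, 3 of 20 G2/M genes (15%, against 9.51% of all tested genes) had a more positive response than in scramble cells. The number was 2 without scramble PDGF-BB replicate 1. None of the 20 replication genes differed in edgeR or DESeq2, with 1 more positive and 2 more negative at an unadjusted p under 0.05.

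**Figure D2:**
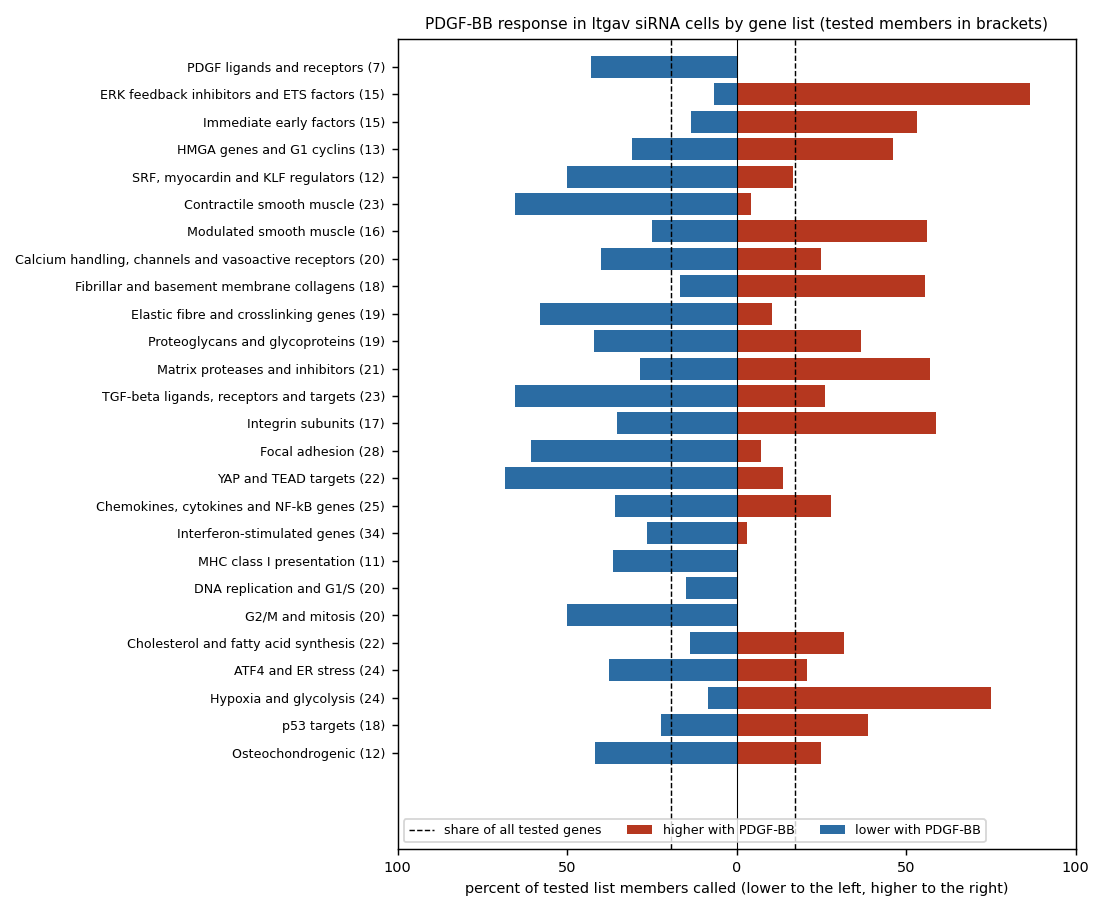
Bars give, for each gene list, the percent of tested members called lower (blue, to the left) or higher (red, to the right) with PDGF-BB in Itgav siRNA cells, and dashed lines the shares of all tested genes (19.2% lower, 17.2% higher). ERK feedback genes and glycolysis genes extend farthest to the right, and contractile, TGF-β and YAP genes farthest to the left.

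Contractile genes fell in 15 of 23 cases (65.2%, against 19.2% of all tested genes). In this list 1 rose and 7 did not pass, with a median log2 fold change of -0.57. Acta2, the smooth muscle actin (chromosome 19, 34241090 to 34255590 on the minus strand), stood at 518, 505 and 550 CPM unstimulated and at 125, 121 and 128 CPM with PDGF-BB, 4.2-fold lower (-2.07 ± 0.043, edgeR adjusted p = 1.6e-19). Tagln, an actin-binding protein, went from 273, 244 and 301 CPM to 71.7, 71.3 and 77.2 CPM (-1.89 ± 0.059), and Myh11, the smooth muscle myosin heavy chain, from 18.7, 21 and 20.2 CPM to 4.99, 4.32 and 6.71 CPM (-1.91 ± 0.13). In each the 3 PDGF-BB libraries lay well under the unstimulated ones. Cnn1 (-1.61), the regulatory light chain Myl9 (-1.48), the actin nucleator Lmod1 (-1.27), Actg2 (-1.84) and the LIM protein Csrp1 (-0.81) fell as well. Smtn (0.04) and the kinase Mylk (0.05) did not pass, and Des, the intermediate filament desmin, rose (0.41), a call lost without PDGF-BB siRNA replicate 2 or unstimulated siRNA replicate 1. Markers of modulated smooth muscle rose in 9 of 16 cases (56.2%, against 17.2% of all tested genes) and fell in 4 (25%, against 19.2%). Beside Spp1, the mineralisation inhibitor Mgp went from 699, 679 and 693 CPM to 1956, 1922 and 1894 CPM (1.48). Timp1 (1.33), the hyaluronan receptor Cd44 (1.15) and the adhesion molecule Vcam1 (0.96) rose, while Myh10 (-0.81) and Dcn (-0.70) fell.

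The fall of several contractile genes was larger in siRNA than in scramble cells, though not that of the list by its count or median. In scramble cells 16 of 23 were lower (against 19.2% of all tested genes), with a median log2 fold change of -0.68. In siRNA cells these were 15 and -0.57, and the median of the differences was -0.12. In scramble cells Acta2 changed from 1035, 1060 and 1100 CPM to 379, 397 and 403 CPM (-1.44), so that the siRNA response minus this one was -0.63 ± 0.059 (edgeR adjusted p = 1.6e-07). Unstimulated siRNA cells already held less Acta2 than unstimulated scramble cells, and the siRNA cells with PDGF-BB had the lowest values of the 4 groups. The same held for Tagln, whose responses differed by -0.78 (edgeR adjusted p = 6e-07), and the differences for Lmod1 (-0.62), Myl9 (-0.68) and Actg2 were called too. For Myh11 (-0.35, edgeR adjusted p = 0.21) and Cnn1 (-0.54, edgeR adjusted p = 0.092) the difference did not pass, though that of Cnn1 passed in 4 alternative fits. In all, 6 of 23 contractile genes (26.1%, against 9.32% of all tested genes) differed in edgeR, each toward a larger fall (the same count without scramble PDGF-BB replicate 1; 0 toward the opposite, where 2 had an unadjusted p under 0.05 and 1 passed in DESeq2). Spp1 differed in the opposite sense: scramble cells went from 74.6, 73.5 and 80.0 CPM to 621, 578 and 695 CPM (3.05), a difference of 1.49 ± 0.098 (edgeR adjusted p = 1.5e-09). Of the 16 modulated markers 5 responses were more positive and 4 more negative (31.2% and 25%, against 9.51% and 9.32% of all tested genes). Mgp (difference -0.50), Vcam1 (-0.47) and Cd44 (-0.19) rose less in siRNA than in scramble cells, the call at Cd44 being lost in some alternative fits.

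**Figure D3:**
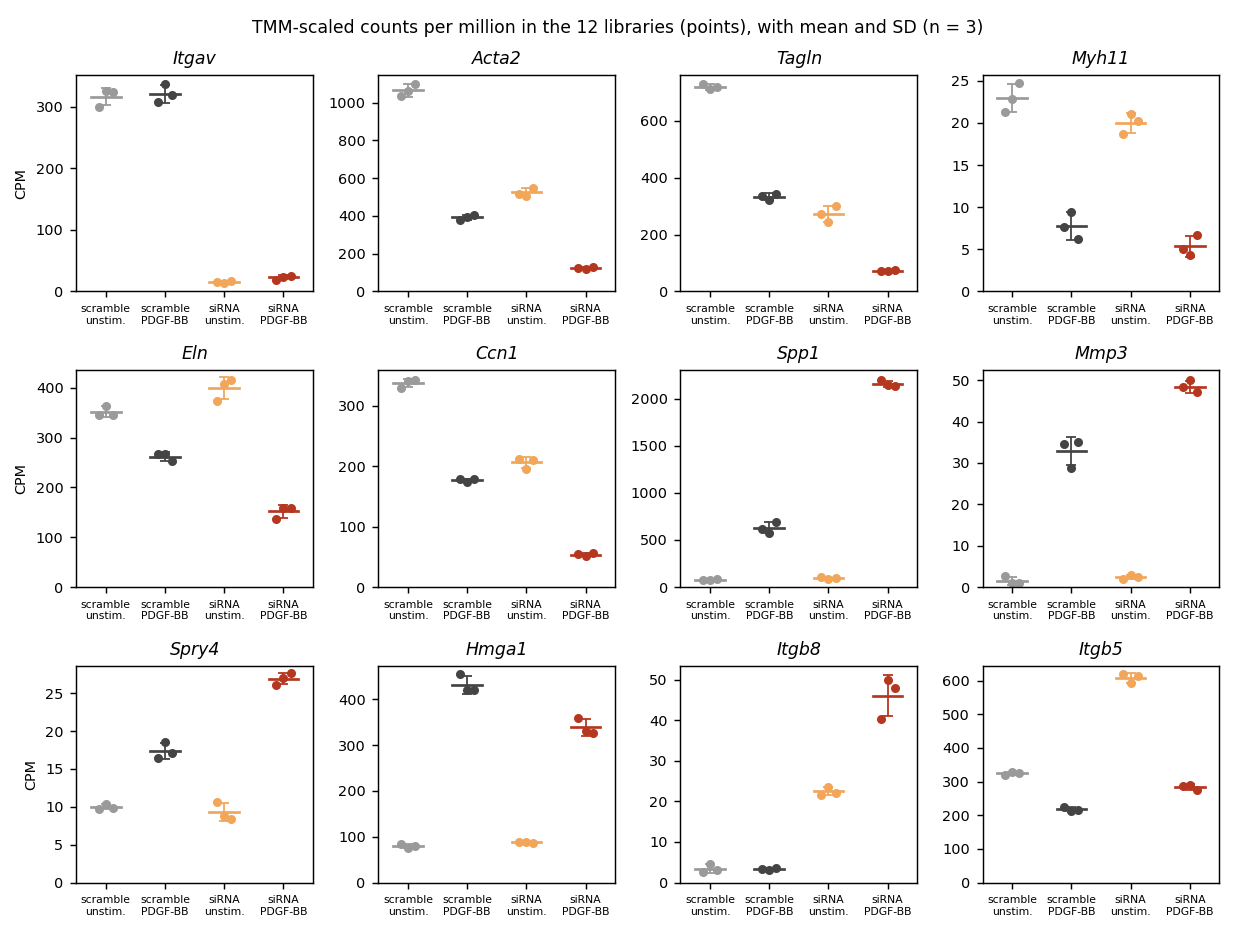
Points give the CPM of 12 genes in the 12 libraries of the 4 groups (light and dark grey, scramble; orange and red, Itgav siRNA), bars the mean and whiskers the SD of 3 libraries, on linear axes that start at 0. Acta2, Tagln, Eln and Ccn1 were lowest, and Spp1, Spry4 and Itgb8 highest, in siRNA cells with PDGF-BB.

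Transcription factors that act on contractile genes had small changes. Of 12 SRF, myocardin-family and KLF regulators 6 fell (50%) and 2 rose (16.7%), against 19.2% and 17.2% of all tested genes. Klf4, a repressor of contractile genes, went from 150, 148 and 153 CPM to 103, 106 and 98.4 CPM (-0.55 ± 0.045). Srf (-0.24), Mrtfa (-0.29), Klf6 (-0.31) and Foxo4 (-0.35) were lower. Receptors and channels were lower in 8 of 20 cases (40%) and higher in 5 (25%, or 3 genes without PDGF-BB siRNA replicate 2). The α1 adrenergic receptors Adra1b (33.8, 32.2 and 32.9 CPM to 9.83, 9.61 and 8.47 CPM, -1.82 ± 0.095) and Adra1d (-1.41) and the phosphodiesterase Pde5a (-0.56) fell, as did Npr3, and Ptger4, a prostaglandin E2 receptor, rose (1.63). Chosen after their values were seen, the angiotensin receptor gene Agtr1a fell from 1.56, 1.26 and 1.04 CPM to at most 0.213 CPM, and the endothelin receptor gene Ednra rose from 1.07, 1.71 and 0.518 CPM to 4.11, 5.43 and 5.48 CPM (2.17).

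Of 19 elastic fibre genes 11 fell (57.9%, against 19.2% of all tested genes) and 2 rose (10.5%, against 17.2%). The median log2 fold change was -0.28. Eln, which encodes elastin (chromosome 5, 134702593 to 134747323 on the minus strand), went from 374, 407 and 416 CPM to 137, 159 and 159 CPM (-1.40 ± 0.051, edgeR adjusted p = 2.1e-15). In scramble cells it went from 346, 364 and 346 CPM to 267, 266 and 252 CPM (-0.43), and the difference of -0.97 ± 0.071 was called (edgeR adjusted p = 5.2e-09). The siRNA libraries with PDGF-BB lay below all 9 others. Lox, which crosslinks elastin and collagen, fell from 1493, 1490 and 1452 CPM to 466, 510 and 489 CPM (-1.60), and Fbln5 (-1.39), Mfap5 (-1.29) and Ltbp4 (-0.87) fell, while Emilin1 (0.68) and Fbln1 (0.65) rose. The difference at Lox did not pass (-0.15 ± 0.092, edgeR adjusted p = 0.27), and the response of Emilin1 was more positive (0.47, edgeR adjusted p = 0.00033).

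Collagen genes moved the other way on balance, with 10 of 18 higher (55.6%, against 17.2% of all tested genes) and 3 lower (16.7%, against 19.2%). Col15a1 rose from 26.0, 30.3 and 26.8 CPM to 106, 134 and 129 CPM (2.15 ± 0.11) and Col6a3 from 31.3, 33.4 and 29.6 CPM to 101, 125 and 127 CPM (1.90 ± 0.092). The other 8 rose by between 0.13 (Col4a2) and 0.90 (Col5a3), and the count of 10 was 6 without PDGF-BB siRNA replicate 2 or unstimulated siRNA replicate 3. Col1a1 did not pass (1362, 1371 and 1329 CPM against 1340, 1525 and 1433 CPM, groups overlapping), and Col14a1 (-0.90), Col11a1 (-0.78) and Col12a1 (-0.75) fell. Responses of 8 collagen genes (44.4%, against 9.51% of all tested genes) were more positive than in scramble cells, also without scramble PDGF-BB replicate 1, and none was more negative in edgeR or DESeq2 (1 at an unadjusted p under 0.05). Among proteoglycans and glycoproteins 7 of 19 rose (36.8%) and 8 fell (42.1%). Vcan, the provisional matrix proteoglycan versican, rose from 47.7, 46.8 and 38.7 CPM to 167, 205 and 200 CPM (2.1). Postn rose (1.29) and Fn1 rose slightly (0.29), and Fmod (175, 169 and 167 CPM to 25.2, 25.3 and 23.7 CPM), Ogn, Prelp (-1.89) and Bgn (-0.69) fell. For Vcan the response exceeded that in scramble cells by 0.97 (edgeR adjusted p = 3.1e-05).

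Matrix proteases and their inhibitors rose in 12 of 21 cases (57.1%, against 17.2% of all tested genes) and fell in 6 (28.6%, against 19.2%). Beside Mmp3 and Mmp13, Mmp19 (0.54), Mmp14 (0.24) and Mmp2 (0.10) rose and Mmp11 (-0.40) fell. Adamts5, an aggrecan- and versican-cleaving protease, went from 426, 423 and 434 CPM to 147, 145 and 148 CPM (-1.54 ± 0.055), and Adamts1 (-1.40) and Adamts2 (-1.05) fell too, whereas Adamts4 rose (1.70). Mmp10 stayed at or under 1.47 CPM in all 6 libraries, and Mmp9 did not pass the count filter. Plaur, the urokinase receptor, rose (0.44), and Plau did not pass (0.06).

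TGF-β and BMP genes were lower in 15 of 23 cases (65.2%, against 19.2% of all tested genes) and higher in 6 (26.1%, against 17.2%). Their median log2 fold change was -0.34. The inhibitory Smad6 went from 44.5, 43.3 and 46.9 CPM to 12.9, 12.2 and 10.2 CPM (-1.93 ± 0.094), and the BMP-responsive genes Id1 (-1.27), Id2 (-1.77) and Id3 (-1.41) and the inhibitor Smad7 (-1.17) fell with it. In the osteochondrogenic list 3 of 12 genes rose (25%) and 5 fell (41.7%). Among the 5 was the ligand gene Bmp4, which went from 207, 208 and 217 CPM to 43.6, 39.2 and 39.2 CPM (-2.37 ± 0.056). Chosen after its values were seen, Bmp2 rose from 0.429, 0.603 and 0.622 CPM to 3.37, 2.94 and 3.51 CPM (2.55) and did so more than in scramble cells (difference 2.26, edgeR adjusted p = 0.013). Tgfb1 (0.90), the receptor Tgfbr1 (0.53) and Tgfbi (2.11) rose, and Tgfb2 (-0.81) and Tgfbr2 (-0.49) fell. The larger falls of Id2, Id3 and Smad6 than in scramble cells were called, with differences of -0.56, -0.35 and -0.53 (largest edgeR adjusted p = 0.006).

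Integrin subunits were higher in 10 of 17 cases, the residual Itgav among them, lower in 6, and 1 did not pass. The shares of 58.8% and 35.3% compare with 17.2% and 19.2% of all tested genes. Of the β chains that pair with αV, Itgb8 (chromosome 12, 119158022 to 119238802 on the minus strand) rose from 21.7, 23.6 and 22.2 CPM to 40.4, 49.9 and 47.9 CPM (1.03 ± 0.11, edgeR adjusted p = 9.6e-08). In scramble cells it was 2.61, 4.67 and 3.05 CPM unstimulated and 3.33, 3.19 and 3.56 CPM with PDGF-BB, so the levels in siRNA cells lay above those of scramble cells in both media, and the difference in response was 1.05 ± 0.21 (edgeR adjusted p = 0.0014). Itgb3 rose from 51.9, 50.4 and 50.4 CPM to 80.1, 87.7 and 83.3 CPM (0.72), and Itgb1 rose slightly (0.23). Itgb5 fell from 621, 592 and 614 CPM to 287, 290 and 274 CPM (-1.10 ± 0.039), further than in scramble cells by 0.53 (edgeR adjusted p = 8.9e-07). Among α chains, Itga5, the fibronectin receptor chain, went from 91.3, 89.8 and 84.2 CPM to 147, 146 and 142 CPM (0.71), the laminin receptor chains Itga6 (1.15), Itga7 (0.97) and Itga3 (0.52) rose, and the collagen receptor chains Itga1 (-1.13) and Itga11 (-1.88) fell, although Itga10 (0.91) and Itga2 (0.34) rose. Of the 17, 10 responses, again with Itgav, were more positive and 3 more negative than in scramble cells, or 58.8% and 17.6% against 9.51% and 9.32% of all tested genes. Itgb1 was among the 10 (0.18), a call lost on leaving out any of 5 libraries, and without scramble PDGF-BB replicate 1 the counts were 9 and 3.

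**Figure D4:**
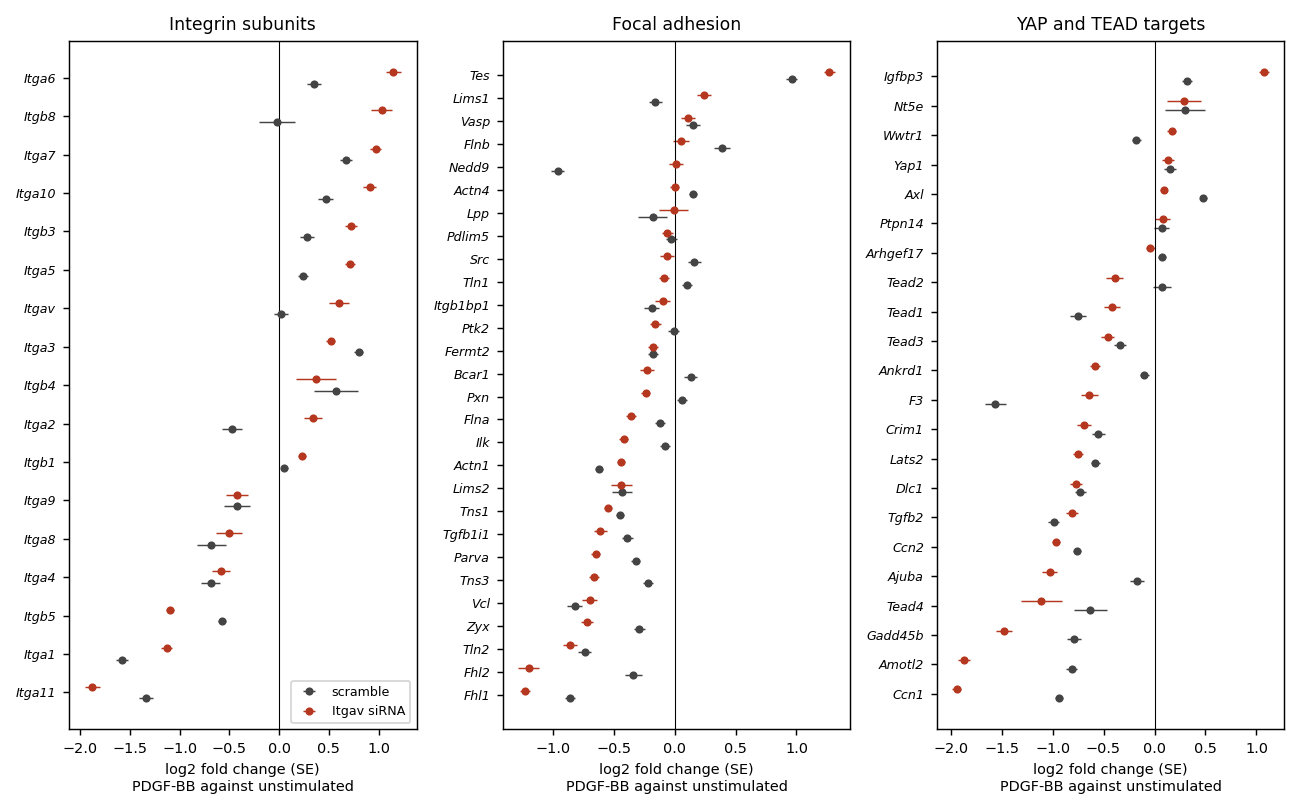
Points give the log2 fold change of PDGF-BB against unstimulated and whiskers its standard error, in scramble (dark grey) and Itgav siRNA cells (red), for the tested genes of 3 lists sorted by the siRNA response. Itgb8, Itga6 and Igfbp3 lie to the right of their scramble values, and Ccn1, Amotl2, Ajuba and Fhl2 to the left.

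Of 28 focal adhesion genes, whose products link integrins to actin, 17 fell and 2 rose (median log2 fold change -0.23). The shares were 60.7% and 7.14%, against 19.2% and 17.2% of all tested genes. Fhl1 went from 533, 531 and 569 CPM to 225, 226 and 244 CPM (-1.23 ± 0.04), Zyx, the adaptor zyxin, from 279, 285 and 285 CPM to 183, 168 and 162 CPM (-0.72), and Vcl (-0.70), Tns3 (-0.66), Parva (-0.65) and Tns1 (-0.55) fell. Tes rose from 30.2, 29.8 and 29.0 CPM to 70.7, 71.3 and 72.7 CPM (1.27), and Lims1 rose slightly (0.24). Responses of 13 genes were more negative than in scramble cells and 4 more positive (46.4% and 14.3%, against 9.32% and 9.51% of all tested genes), with 12 and 4 without scramble PDGF-BB replicate 1. Of 22 targets and factors of YAP and TEAD, a pathway known to respond to cell tension and adhesion, 15 fell (68.2%) and 3 rose (13.6%). Their median was -0.61. Ccn1, a matricellular integrin ligand (chromosome 3, 145646976 to 145649981 on the minus strand), went from 212, 196 and 211 CPM to 54.6, 50.8 and 55.5 CPM (-1.94 ± 0.043), where scramble cells went from 330, 341 and 342 CPM to 178, 173 and 178 CPM (-0.94). The difference was -1.0 ± 0.058 (edgeR adjusted p = 3.9e-10). Amotl2, an angiomotin family member, fell further too (-1.87 against -0.81, edgeR adjusted p = 5.2e-09), as did Ajuba (-1.03 against -0.17), and Ccn2 by less (-0.97 against -0.76, difference -0.21 with edgeR adjusted p = 0.0073). Igfbp3, which binds insulin-like growth factors, rose from 329, 340 and 332 CPM to 659, 702 and 738 CPM (1.07), more than in scramble cells by 0.75 (edgeR adjusted p = 1.2e-07).

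Among genes of at least 5 CPM on average with ordinary symbols, those with the smallest p for a difference between the responses included some that moved in opposite directions. Slc22a23, an organic ion transporter gene (chromosome 13, 34179158 to 34345182 on the minus strand), rose from 8.96, 8.79 and 8.40 CPM to 20.1, 21.4 and 22.8 CPM in siRNA cells (1.30 ± 0.079) and fell from 22.4, 22.8 and 24.8 CPM to 11.4, 12.5 and 11.5 CPM in scramble cells (-0.99 ± 0.075). Kirrel3, an adhesion molecule of the immunoglobulin superfamily, behaved alike (0.71 against -1.49), and so did Palmd (0.82 against -0.75). In these 3 genes PDGF-BB reversed which of the siRNA and scramble cells held more message. Gadd45a, a stress and growth arrest gene, rose from 33.4, 28.8 and 29.9 CPM to 79.3, 83.1 and 79.0 CPM (1.39), where scramble cells went from 25.1, 23.7 and 24.9 CPM to 21.8, 21.8 and 21.6 CPM (-0.18). Serpina3n rose 2.07-fold in siRNA cells and did not pass in scramble cells (-0.03), and the prostaglandin synthase Ptgs2 went from 61.1, 53.4 and 59.2 CPM to 119, 114 and 124 CPM (1.04) against 0.10 in scramble cells. Alcam (-0.03 against -1.38) and Rgs5, a pericyte and smooth muscle regulator of G-protein signalling (-0.18 against -1.29), fell in scramble cells, where in siRNA cells Alcam did not pass and Rgs5 fell slightly.

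In the negative direction, Angptl7, an angiopoietin-like secreted protein, went from 188, 184 and 194 CPM to 40.3, 32.3 and 41.3 CPM in siRNA cells (-2.31 ± 0.071) and from 90.6, 101 and 103 CPM to 58.7, 59.7 and 62.6 CPM in scramble cells (-0.70). The caveolar protein gene Cavin2 fell in siRNA cells, from 451, 440 and 458 CPM to 275, 252 and 269 CPM (-0.76), and did not pass in scramble cells (0.06). The calponin Cnn2 (-1.29 against -0.33), the Hippo pathway scaffold Wwc1 (-1.86 against -0.71), Ntn4 (-1.35 against -0.35), Npr3 (-3.48 against -2.2) and Gpm6a (-2.62 against -1.67) also fell further in siRNA cells.

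Of 24 genes of glycolysis and hypoxia 18 rose (75%, against 17.2% of all tested genes) and 2 fell (median 0.32). Pkm, a pyruvate kinase gene, went from 952, 905 and 896 CPM to 1826, 1676 and 1669 CPM (0.91 ± 0.058). Ldha went from 269, 268 and 264 CPM to 491, 457 and 449 CPM (0.80), and Gapdh (0.56), Pgk1 (0.55) and Tpi1 (0.54) rose. The hypoxia-responsive genes Ndrg1 (81.9, 84.8 and 85.7 CPM to 23.1, 24.1 and 20.9 CPM, -1.89) and Adm (-1.56) fell. Of 24 ATF4 and ER stress genes 5 were higher and 9 lower, or 20.8% and 37.5% against 17.2% and 19.2% of all tested genes, and 10 did not pass: the cystine transporter Slc7a11 rose from 29.0, 29.0 and 26.6 CPM to 104, 121 and 120 CPM (2.03), and Vldlr (-1.14), Phgdh (-0.70) and Slc7a5 (-0.58) fell. Of 22 sterol and fatty acid genes 7 rose, Scd1 (0.56) among them, and 3 fell, including Sqle (-0.53), which is 31.8% and 13.6% of that list. Of 18 p53 targets 7 rose and 4 fell (38.9% and 22.2%), with Mdm2 at 0.67 and Fas at -0.57.

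Chemokine, cytokine and NF-κB genes were higher in 7 of 25 cases (28%, against 17.2% of all tested genes) and lower in 9 (36%, against 19.2%). Cxcl12, the chemokine CXCL12, went from 5650, 5585 and 5594 CPM to 2689, 2655 and 2650 CPM (-1.07 ± 0.025, edgeR adjusted p = 1.3e-18), further than in scramble cells by 0.44 (edgeR adjusted p = 2e-08). Csf1 fell (-0.69), and Lif, a cytokine of the interleukin 6 family, rose (0.76), while it did not pass in scramble cells (-0.03). Il6 fell from 5.15, 3.97 and 6.43 CPM to 3.28, 4.69 and 3.46 CPM (-0.43, edgeR adjusted p = 0.027), with the groups overlapping.

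Of 34 interferon-stimulated genes 9 were lower, which is 26.5% against 19.2% of all tested genes, 1 was higher and 24 did not pass (median -0.21). Unstimulated siRNA cells averaged 3080 CPM of Ifit3, an antiviral effector, against 78.0 CPM in unstimulated scramble cells, and likewise 605 against 56.9 CPM of Bst2 and 226 against 7.71 CPM of Irf7. With PDGF-BB Ifit3 went from 3075, 2866 and 3300 CPM to 2128, 2302 and 1497 CPM (-0.64 ± 0.16, edgeR adjusted p = 0.0028), and Gbp6 (-0.57), Bst2 (-0.62), Irf7 (-0.56) and Mx2 (-0.48) fell. PDGF-BB replicate 3 was lowest, with a median over the 34 genes of -0.56 on the log2 scale relative to the unstimulated mean, against -0.25 and -0.06 in replicates 1 and 2. The count of 9 became 2 without that library, 4 without unstimulated replicate 3, 16 without PDGF-BB replicate 2, 15 in a fit of only the groups compared, 24 without a low-count filter and 2 in DESeq2. None of the 34 responses differed from that in scramble cells in edgeR or DESeq2, with 5 more positive and 1 more negative at an unadjusted p under 0.05. MHC class I genes, which interferon raises, fell in 4 of 11 cases (36.4%), those of Tap1 (-0.40), Tapbp (-0.30), B2m (-0.24) and H2-K1 (-0.32). The count was 2 without PDGF-BB replicate 3, where B2m was at -0.15 and H2-K1 at -0.18. The groups overlapped for both, H2-K1 also lost its call in DESeq2, and no gene of this list rose in edgeR, in DESeq2 or at an unadjusted p under 0.05. What part the high interferon gene levels of the siRNA cells had in the other responses was not tested.

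**Figure D5:**
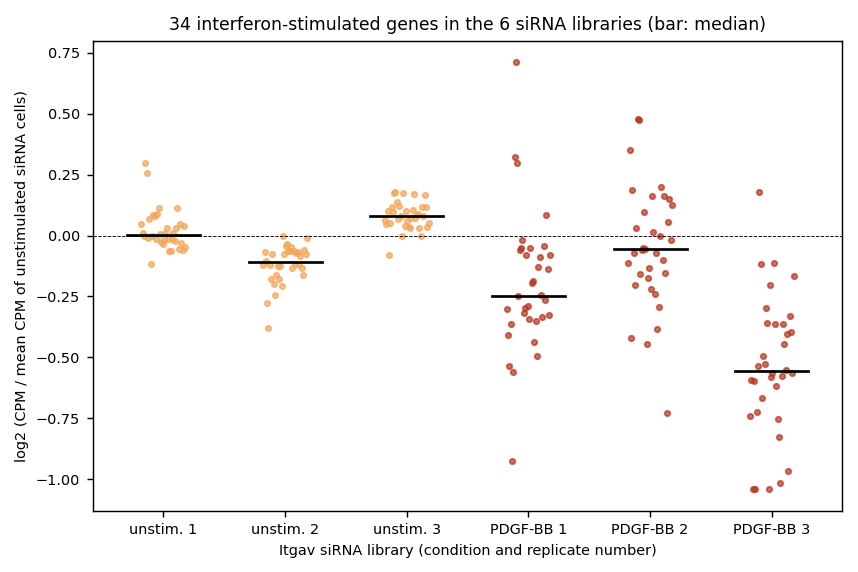
Each point is 1 of 34 interferon-stimulated genes in a library of Itgav siRNA cells, as the log2 ratio of its CPM to the mean of the 3 unstimulated libraries, and bars are medians. The medians of PDGF-BB replicates 1, 2 and 3 were -0.25, -0.06 and -0.56.

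Markers of other cell types were read in the same 6 libraries. The smooth muscle genes Acta2, Tagln and Myh11 were detected in each. Of all tested genes 17.2% were called higher and 19.2% lower, and the marker counts below are given beside these shares. The summed level of 10 endothelial markers was 86.2 to 103 CPM unstimulated and 95.2 to 113 CPM with PDGF-BB (2 higher, 1 lower). That of 10 adventitial fibroblast markers was 1004 to 1037 and 1085 to 1141 CPM (3 higher and 3 lower of 9 tested). Most of it came from Gsn, with means of 894 CPM unstimulated and 958 CPM with PDGF-BB. For 8 mesothelial markers the sum was 95.0 to 97.8 and 90.4 to 98.6 CPM (3 higher and 2 lower of 7 tested). The 9 macrophage markers summed to 19.8 to 21.2 and 25.1 to 27.0 CPM, and Itgam was at 0 in all 6 libraries. Of the 5 tested, 3 rose, Cd68 among them (2.23), and Lyz2 fell (-0.81). Ptprc, another of the 3, stayed at or under 0.322 CPM. Single markers moved within a list in opposite directions, such as Krt19 (1.71) and Upk3b (-2.48) of the mesothelial list and Dpt (2.23) and Clec3b (-1.89) of the adventitial list. Lymphocyte markers summed to at most 0.476 CPM and erythroid markers to at most 0.054 CPM, adipocyte markers to 3.06 to 3.45 and 9.52 to 11.2 CPM, Schwann cell markers to 10.5 to 13.2 CPM over the 6 libraries and cardiomyocyte markers to 10.2 to 12.1 and 5.43 to 5.83 CPM. The part of these markers in the results was not tested.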

How the data were processed

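The submitters' processing notes name HISAT2 2.2.1, StringTie 2.1.6 and the build mm10. The table deposited by the authors holds estimated counts for 57180 genes, of which 25535 were at 0 in all 18 libraries, and 76.2% of values above 0 were whole. The counts were rounded, and all 18 libraries were fitted together in edgeR 4.0.16 (R 4.3.3) with 1 mean for each group. TMM factors ranged from 0.925 to 1.07, and the quasi-likelihood tests had 12 residual degrees of freedom. filterByExpr (minimum count 10) kept 15832 genes, which held 99.91% or more of each library's counts. The biological coefficient of variation was 6.01%. The difference between siRNA and scramble responses was an interaction contrast in the same fit. A standard error is the log2 fold change divided by the square root of the test's F statistic. The fit was also run on simulated counts in which few genes changed and all shared a common spread. That run cannot show how the fit performs where as many genes change as here. Whether counting used the strand is not given, so overlapping genes are uncertain.

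Named genes were Itgav, a panel of 15 genes, all tested PDGF and ERK feedback genes, the 10 largest rises and falls among called genes of at least 5 CPM on average with ordinary symbols and groups that do not overlap, up to 5 genes of smallest p in any list holding 3 or more calls, and 8 genes of smallest p in either direction of the difference. Genes chosen by the difference also had at least 5 CPM on average and ordinary symbols. Other genes were named after their values were seen, and some genes that the rule chose are not reported here. The members and the 26 lists were chosen with earlier results of these data known. Positions are from GENCODE M21, and promoters from RefSeq. Alternatives were DESeq2 1.42.0, its size factors in edgeR, no count filter, a filter at 1 CPM on average, a fit of only the groups compared, a replicate block and leaving out each library. Figures were drawn with matplotlib 3.10.9. The TGF-β libraries entered only the shared fit.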

Additional observations from a re-analysis of the deposited data

Results flagged for a closer look

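Genes of at least 5 CPM on average over the 4 groups and with ordinary symbols were ranked here. These 16 had the smallest p for a difference between the PDGF-BB response of siRNA cells and that of scramble cells, in either direction. Each value is the siRNA log2 fold change minus the scramble one, and each passed edgeR's interaction test (adjusted p of 1.4e-08 or less). The response was more positive in siRNA cells for Slc22a23 (2.29), Kirrel3 (2.2), Palmd (1.58), Gadd45a (1.57), Spp1 (1.49), Alcam (1.34), Rgs5 (1.11) and Serpina3n (1.08). It was more negative for Angptl7 (-1.61), Npr3 (-1.27), Wwc1 (-1.15), Ccn1 (-1.0), Ntn4 (-1.0), Cnn2 (-0.96), Gpm6a (-0.95) and Cavin2 (-0.82). Slc22a23, Kirrel3, Palmd and Gadd45a moved in opposite directions in the compared cells, each past the threshold in both, Gadd45a only slightly in scramble cells (-0.18).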

How the results depend on the processing

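Every count of all called genes stayed within 1.5 times its value. The PDGF-BB response in siRNA cells gave 5524 calls with DESeq2, 5674 without a count filter, 5546 at a mean of 1 CPM, 5704 with DESeq2 size factors, 5945 in a fit of the 6 libraries alone and 4887 to 5542 leaving out 1 library. The difference gave 2138 to 3454 calls leaving out 1 library. The labels do not state whether replicate numbers pair the libraries. Deviations of same-numbered libraries correlated at -0.029 to 0.097 and those of other pairs at -0.092 to 0.076, which does not settle it. A replicate block gave 5944 calls for the siRNA response and 3349 for the difference, against 5766 and 2981 without it. Of 162 called responses of named genes 155 kept their call under every alternative listed. The other 7, Gbp6, Irf7, Bst2, Mx2, B2m, H2-K1 and Rgs5, lost it at least once, and Pdgfc, Pdgfrl and Dusp5 gained one. Of 101 called differences of named genes 89 kept their call, 12 lost it at least once (Adamts1, Adamts2, Atf4, Cd44, Col14a1, Foxo4, Gdf15, Itgb1, Jun, Nptx1, Ogn and Phlda1), and those of Cnn1, Col1a1 and Fn1 gained one. Directions turned only for values near 0, when 1 library was left out: the Pdgfb response (-0.23 to 0.14), the Alcam response (-0.07 to 0.01) and the difference at Klf4 (-0.04 to 0.02). Genes near 1 CPM rest on about 20 counts a library, and 3 replicates limit what small changes can be called.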
